A study of Mus musculus with 21 samples.

Results

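The genes described are 9 components of interferon signalling, namely the receptor chains Ifnar1, Ifnar2 and Ifngr1, the transcription factors Stat2, Irf1, Irf7, Irf8 and Irf9, and the inhibitor Socs1. They were taken by symbol from a neocortex count table of 48474 rows, in which each of the 9 symbols had 1 row and none had a further-copy row. Of these rows, 18248 passed the filter on low counts and were tested, including all 9 genes. The libraries came from 11 wildtype (WT) and 10 transgenic (TG, rNLS8) mice, in 2 independent batches, A with 4 WT and 3 rNLS8 mice and B with 7 and 7. rNLS8 mice carry NEFH-tTA, a doxycycline-repressed activator under the neurofilament heavy chain promoter, together with tetO-hTDP-43ΔNLS, a human TDP-43 without its nuclear localization signal. Transgene expression is thus driven mainly in neurons. The WT label stands for monogenic littermates, which carry 1 of these transgenes, and which of them is not stated. Mice of both groups were 17 to 19 weeks old when they received 350 µg of a non-targeting antisense oligonucleotide (ASO) in 10 µL into a cerebral ventricle, so the comparison is between ASO-injected groups. All were fed doxycycline at 200 mg/kg of diet until 2 weeks after the injection, and tissue was taken after 3 weeks without it.

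Type I interferons bind a receptor made of IFNAR1 and IFNAR2, and interferon gamma binds IFNGR1 with its partner chain. Receptor-bound Janus kinases phosphorylate STAT proteins. STAT2 with a STAT partner and the DNA-binding subunit IRF9 forms ISGF3, which binds the interferon-stimulated response element (ISRE), while STAT dimers bind the gamma-activated sequence (GAS). Several components are themselves interferon-inducible, among them IRF7, which drives transcription of type I interferon genes, IRF1, which takes part in the response to interferon gamma, and SOCS1, which inhibits the Janus kinases. IRF8 is a lineage factor of microglia, the resident immune cells of the brain, and of other myeloid cells.

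Library depth was similar, with 20700912 to 21993072 counts per WT mouse and 20786303 to 22263809 per rNLS8 mouse. Of all genes tested, edgeR's quasi-likelihood test with batch as covariate called 4190 (23%) higher in rNLS8 mice and 3964 (21.7%) lower, with the adjusted p below 0.05, and scaling by library size alone changed the split to 5832 higher and 2752 lower. Counts at mouse Tardbp rose by a log2 fold change of 0.62 (adjusted p = 1.50e-07), and whether they include reads of the human transgene is not given in the sources used here. In batch A alone the change was 0.26 (adjusted p = 0.191), and in batch B alone it was 0.79 (adjusted p = 1.42e-10). Batch A minus batch B was -0.56 (edgeR interaction of genotype and batch, unadjusted p = 7.31e-06, adjusted p = 0.133). The library T61340, labelled TG, was within the WT range for Tardbp with 2363 normalized counts, against 2253 to 2827 in WT mice. Across 16153 genes with a known exon length, the deviation of T61340 from the other rNLS8 mice fell with exon length (Spearman rho -0.479, a description across genes of 1 library), while the other rNLS8 libraries lay between -0.139 and 0.329. All 8 neuron markers passed the filter, and 5 were lower and none was higher in rNLS8 mice. Of 8 astrocyte markers 5 were lower and 1, Gfap, was higher (log2 fold change 1.03). Among rNLS8 mice, T60303 had the highest summed level of the astrocyte markers (5674 CPM) and the lowest of the neuron markers (4961 CPM). In bulk tissue, more cells of a type and more RNA per cell cannot be told apart.

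Of the 9 genes, 7 were higher and none was lower in rNLS8 mice. This share of 77.8% stands beside the 23% of all tested genes that were higher. Irf7 rose most, with a log2 fold change of 3.21 (9.26-fold), followed by Irf9 with 1.84 (3.58-fold), Irf8 with 0.70, Stat2 with 0.65, Irf1 with 0.35, Ifngr1 with 0.31 and Ifnar2 with 0.26. Ifnar1 and Socs1 did not pass the test, with log2 fold changes of -0.02 and 0.07. For Stat2, Irf7 and Irf9, all 10 rNLS8 mice lay above all 11 WT mice, as was the case for 3.85% of all genes tested. Leaving out any 1 mouse, T61340 included, left 7 genes higher. So did leaving out T60303, T61340 and T_70267 together, the mice that stood highest or lowest or apart in these data. That fit kept T61342 alone of the rNLS8 mice of batch A, so it rests mostly on batch B.

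**Figure D1:**
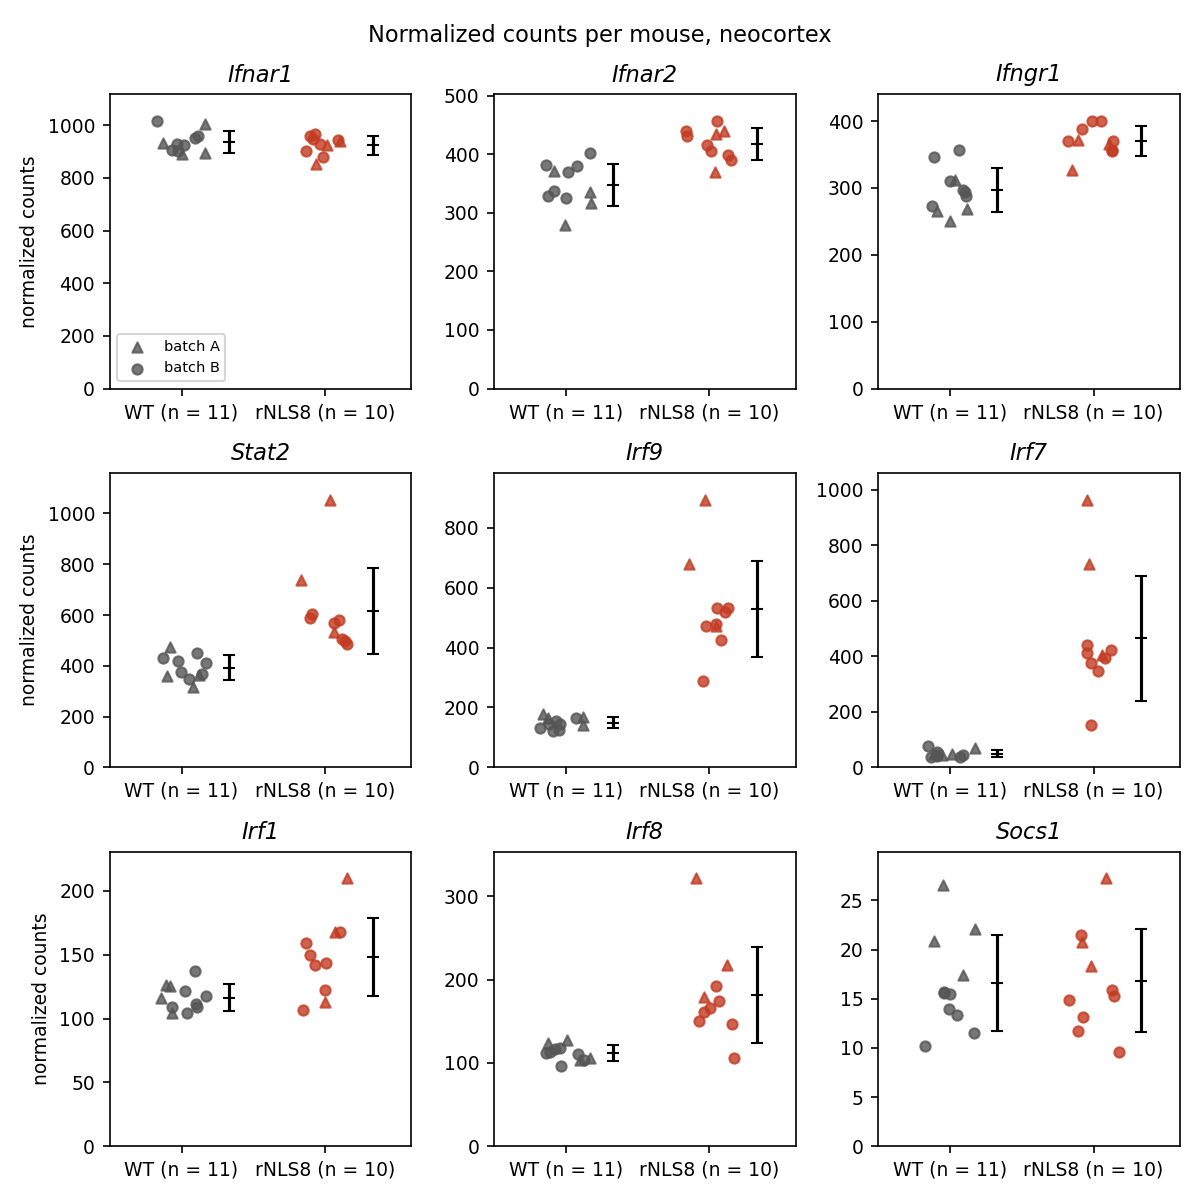
Normalized counts (y axis, linear from 0) of each of the 9 genes in each WT and rNLS8 mouse, with triangles for batch A, circles for batch B, and the mean ± SD beside each group. Irf7, Irf9 and Stat2 separate the groups without overlap, while Ifnar1 and Socs1 overlap throughout.

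The promoter windows of 4 genes are shown as examples of different responses. Irf7 and Stat2 rose in every rNLS8 mouse, Irf1 rose with overlap between the groups, and Socs1 did not pass the test. Each sequence is from RefSeq on GRCm38.p6, read 5′ to 3′ on the gene's strand from 250 bases before to 50 bases after the transcription start. Capitals mark matches on either strand to the ISRE core, spelled as GAAA, 2 bases of any kind and GAAA, or to the GAS core, spelled as TTC, 3 bases of any kind and GAA. All 9 genes had at least 1 window, 12 in all, and for Irf1 the first of its windows is given.
Irf7 (chr7:141266375-141266674, minus strand): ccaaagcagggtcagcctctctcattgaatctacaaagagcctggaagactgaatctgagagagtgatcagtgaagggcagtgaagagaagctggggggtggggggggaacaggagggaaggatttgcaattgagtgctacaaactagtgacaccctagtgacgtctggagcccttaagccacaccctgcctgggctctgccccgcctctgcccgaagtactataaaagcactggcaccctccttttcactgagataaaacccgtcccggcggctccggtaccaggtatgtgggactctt
Stat2 (chr10:128270248-128270547, plus strand): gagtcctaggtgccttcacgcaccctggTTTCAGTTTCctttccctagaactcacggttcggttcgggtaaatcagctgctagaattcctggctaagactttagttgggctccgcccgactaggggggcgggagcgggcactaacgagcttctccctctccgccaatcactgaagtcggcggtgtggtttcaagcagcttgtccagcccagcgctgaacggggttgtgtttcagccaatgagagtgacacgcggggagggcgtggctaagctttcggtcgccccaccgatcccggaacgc
Irf1 (chr11:53769764-53770063, plus strand): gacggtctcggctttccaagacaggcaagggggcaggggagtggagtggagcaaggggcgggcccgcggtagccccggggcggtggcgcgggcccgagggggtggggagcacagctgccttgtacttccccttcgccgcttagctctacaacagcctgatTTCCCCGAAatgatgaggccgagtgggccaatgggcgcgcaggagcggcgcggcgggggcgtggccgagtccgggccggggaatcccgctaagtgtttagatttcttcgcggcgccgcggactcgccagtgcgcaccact
Socs1 (chr16:10785487-10785786, minus strand): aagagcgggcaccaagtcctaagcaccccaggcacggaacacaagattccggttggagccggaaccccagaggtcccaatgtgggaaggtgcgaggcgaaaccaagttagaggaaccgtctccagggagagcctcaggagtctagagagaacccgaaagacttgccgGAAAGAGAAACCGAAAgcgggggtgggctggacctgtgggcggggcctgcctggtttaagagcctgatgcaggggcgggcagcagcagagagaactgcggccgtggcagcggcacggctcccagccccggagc
The ISRE core occurred in 2 of the 9 genes. Stat2 held it from -222 to -213 relative to the start, and Socs1 held 2 overlapping matches from -83 to -74 and from -77 to -68. The GAS core occurred in 4 genes, namely Ifnar1, Ifnar2, Irf1, where it spanned -90 to -82, and Irf8. Of 32851 windows of the same length from 27025 genes of the count table, 3.44% held the ISRE core and 8.3% the GAS core. The windows of Irf7, Irf9 and Ifngr1 held neither. A match is a run of letters, not a bound site, and the windows without one say nothing about binding elsewhere.

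Among the receptor chains Ifnar1, Ifnar2 and Ifngr1, the most abundant was Ifnar1, the chain that recruits the kinase TYK2. Ifnar1 did not pass the test. Its lowest, median and highest values were 891, 930.1 and 1017 normalized counts in WT mice and 851, 933 and 966 in rNLS8 mice. The ranges overlapped over most of their length. The fitted genotype effect was -0.02 ± 0.035 (log2, standard error, SE; adjusted p = 0.629 in edgeR), and it was 0.05 when counts were scaled by library size alone (adjusted p = 0.225). Ifnar1 lies on chromosome 16 of GRCm38 from 91485032 to 91510523.

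Ifnar2, the high-affinity binding chain of the same receptor and a neighbour of Ifnar1 on chromosome 16 (91372783 to 91405589), rose slightly. WT mice had 279, 338 and 403 normalized counts (lowest, median, highest) and rNLS8 mice 369, 423 and 458. Of the 10 rNLS8 mice, 7 were above every WT mouse, and none was below the WT range. The fitted genotype effect was 0.26 ± 0.056 (log2, SE; adjusted p = 0.000514). Its exons share 315 bases with Gm21970 on the same strand, so that part of its reads could be assigned to either. The log2 ratio of Ifnar2 to Ifnar1 counts within a mouse was -1.43 ± 0.20 (SD, n = 11) in WT and -1.14 ± 0.13 (SD, n = 10) in rNLS8 mice, with a difference of 0.28 when weighted within batches (exact permutation within batch, two-sided, p = 0.000982). The ratio was chosen after the values were seen.

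Ifngr1, the ligand-binding chain of the interferon gamma receptor (chromosome 10, 19591949 to 19610229), had 251, 294 and 356 normalized counts in WT and 326, 369.8 and 400.4 in rNLS8 mice. Here 8 of 10 rNLS8 mice exceeded all WT mice, with the other 2 inside the upper part of the WT range. On the log2 scale, rNLS8 minus WT was 0.31 ± 0.054 (SE; adjusted p = 4.12e-05). The spread between rNLS8 mice was small for these receptor chains, with SDs of 0.095 for Ifnar2 and 0.087 for Ifngr1 on the log2 CPM scale (CPM, counts scaled to library size), against 0.15 and 0.16 in WT mice.

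The subunits of ISGF3 rose unequally. Stat2 (chromosome 10, 128270498 to 128292853), which supplies the transactivation domain, had 317, 375 and 476 normalized counts in WT mice and 486, 575 and 1055 in rNLS8 mice. The groups did not overlap, although the lowest rNLS8 mouse was only just above the highest WT mouse. T60303 was far above the next rNLS8 mouse, T61340, at 737. The fitted genotype effect was 0.65 ± 0.11 (log2, SE; adjusted p = 2.27e-05), and 0.53 without T60303.

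Irf9 (chromosome 14, 55603985 to 55610030) had 122, 146 and 177 normalized counts in WT mice. In rNLS8 mice the lowest was 289 in T_70267, the median 499.5 and the highest 894 in T60303. The gap between the groups was thus larger than the whole WT range. On the log2 scale, rNLS8 minus WT was 1.84 ± 0.11 (SE; adjusted p = 5.33e-12), larger than that of 99.6% of the genes tested. Rnf31, a neighbour on the same strand, shares 123 bases of exon with Irf9 and rose as well (log2 fold change 0.55, adjusted p = 2.48e-08), so that reads in the shared part are uncertain.

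Because Irf9 rose more than Stat2, their balance shifted. The log2 ratio of Irf9 to Stat2 counts was -1.39 ± 0.22 (SD, n = 11) in WT and -0.23 ± 0.21 (SD, n = 10) in rNLS8 mice. It was higher in all 10 rNLS8 mice than in any WT mouse, with a difference of 1.17 when weighted within batches (exact permutation within batch, two-sided, p = 8.33e-06, which is the smallest that 120120 regroupings can give). This ratio, too, was chosen after the values were seen. Per kilobase of exon, WT mice had 3.10 ± 0.38 CPM of Stat2 and 1.29 ± 0.16 of Irf9 (SD). In rNLS8 mice the levels were 4.86 ± 1.35 and 4.60 ± 1.40 CPM per kilobase (SD), a difference smaller than the spread between mice.

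Irf7 (chromosome 7, 141263183 to 141266499, minus strand), the factor that amplifies type I interferon transcription, had 37.5, 45.9 and 78.4 normalized counts in WT mice. In rNLS8 mice the lowest value was 151 in T_70267, the median 408 and the highest 964 in T60303. The lowest rNLS8 mouse was above the highest WT mouse, T_70262. The effect of genotype was 3.21 ± 0.20 in log2 units (SE; adjusted p = 6.27e-12), which exceeded that of 99.9% of the genes tested. Its exons overlap 45 bases of exon of Phrf1 on the opposite strand. Phrf1 changed by only 0.12 on the log2 scale (adjusted p = 0.0358). Whether the counting used strand is not given in the sources used here.

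Irf7 also varied most between rNLS8 mice among the genes that rose, with an SD of 0.69 on the log2 CPM scale against 0.33 in WT mice. The spread was wider in rNLS8 than in WT mice for Irf8 (0.41 against 0.12), Irf9 (0.42 against 0.18), Stat2 (0.33 against 0.18) and Irf1 (0.29 against 0.12) as well. The SDs were also computed without the highest and the lowest rNLS8 mouse. Without T60303 the SD of Stat2 was 0.18. Without T60303 and T_70267 the SD was 0.33 for Irf7, 0.18 for Irf8, 0.20 for Irf9 and 0.20 for Irf1. Leaving out the extremes of a group lowers its SD by construction. No WT mouse was left out, so these values cannot be set against the SDs of WT mice. These SDs are descriptions and were not tested.

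Irf1 (chromosome 11, 53770014 to 53778374), an early target of STAT dimers, rose moderately. WT mice had 104, 116 and 137 normalized counts and rNLS8 mice 107, 147 and 209.8. The lowest rNLS8 mice, T_70267 at 107 and T61342 at 113, were below the WT median, and 7 of 10 were above every WT mouse. The fitted genotype effect was 0.35 ± 0.095 (log2, SE; adjusted p = 0.00403). The antisense gene Gm17334 shares 135 bases with exons of Irf1, so reads there are uncertain.

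Irf8 (chromosome 8, 120736358 to 120756694), the myeloid lineage factor, had 96.7, 111 and 127 normalized counts in WT mice and 106, 170.3 and 321 in rNLS8 mice. In 9 of 10 rNLS8 mice it was above the WT range, and T_70267 at 106 was inside it. On the log2 scale, rNLS8 minus WT was 0.70 ± 0.11 (SE; adjusted p = 1.66e-05). Among 11 microglia markers, 5 were higher and 1, P2ry12, a purinergic receptor of homeostatic microglia, was lower, with a median log2 fold change of 0.13. The summed level of these markers ranged from 402 to 464 CPM in WT and from 418 in T_70267 to 587 in T60303 among rNLS8 mice, and none was at 0. The same mice were thus lowest and highest for Irf8 and for the microglia markers. Monocyte and border macrophage markers summed to 15.8 to 26.3 CPM in WT and 17.2 to 68.7 in rNLS8 mice, where the median of 25.3 was within the WT range and the highest value was that of T60303. Of the 6 of 8 markers that were tested Lyz2 was higher, but in neither batch alone (adjusted p = 0.0900 and 0.0638), and its highest rNLS8 value was 1113 normalized counts against a median of 276. The other 2 were too low to be tested, with 16 counts of Plac8 in all WT and 148 in all rNLS8 mice, and 49 and 88 of Ccr2. Of the 10 rNLS8 mice, 9 were above every WT mouse for Plac8 and 7 for Ccr2. Of 4 dendritic cell markers 2 were tested. Zbtb46 was lower (log2 fold change -0.25, adjusted p = 0.00295) and Flt3 did not pass (-0.03, adjusted p = 0.839). Xcr1 and Clec9a had 3 and 9 counts in all mice together, so the sum of the markers rests on Zbtb46 and Flt3. This sum had a median of 17.8 CPM in WT and 15.5 in rNLS8 mice. The 4 B cell markers summed to at most 0.838 CPM in any mouse. The part of these cell types in the change of Irf8 was not tested.

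Socs1 (chromosome 16, 10783808 to 10785536, minus strand), the feedback inhibitor of the pathway, was near the lower end of what could be tested, with 350 counts in all 21 mice. WT mice had 10.2, 15.5 and 26.6 normalized counts and rNLS8 mice 9.56, 15.6 and 27.2. The ranges were nearly the same. On the log2 scale, rNLS8 minus WT was 0.07 ± 0.14 (SE; adjusted p = 0.770), so that small changes of this gene were not detectable at this depth.

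**Figure D2:**
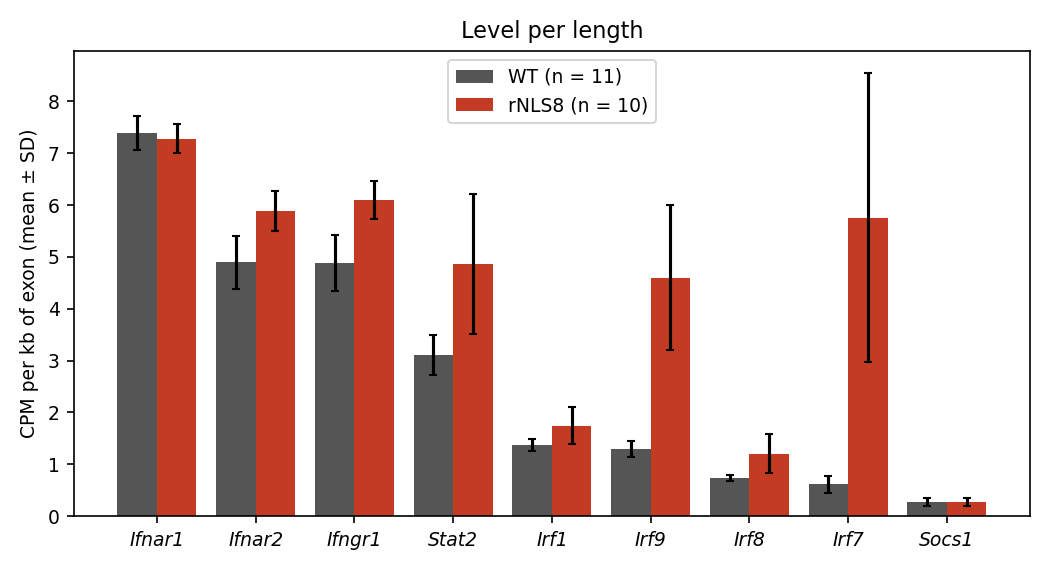
Mean level of each gene in CPM per kilobase of exon (y axis from 0; bars are means, error bars SD) in WT and rNLS8 mice, ordered by the WT level. In WT mice Irf7 is next to lowest, and in rNLS8 mice it is in the range of the receptor chains and Stat2.

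Levels between genes were compared per kilobase of exon. In WT mice the order was Ifnar1 (7.39 ± 0.33 CPM per kilobase, SD), Ifnar2 (4.90 ± 0.51), Ifngr1 (4.88 ± 0.54), Stat2 (3.10), Irf1 (1.37 ± 0.12), Irf9 (1.29), Irf8 (0.742 ± 0.061), Irf7 (0.615 ± 0.16) and Socs1 (0.267 ± 0.078). Ifnar2 and Ifngr1 differed by less than the SD of either, as did Irf1 and Irf9, while the difference between Irf8 and Irf7 was below the SD of Irf7 and above that of Irf8. In rNLS8 mice Irf7 reached 5.76 ± 2.79 CPM per kilobase (SD), 4th in the order after Ifnar1 (7.29), Ifngr1 (6.09) and Ifnar2 (5.89), and it did not differ from the latter pair beyond its spread. Irf1 (1.75), Irf8 (1.20) and Socs1 (0.271) formed the lower end. Each gene was represented by the union of its GENCODE M21 exons, so genes with rarely used exons are understated.

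**Figure D3:**
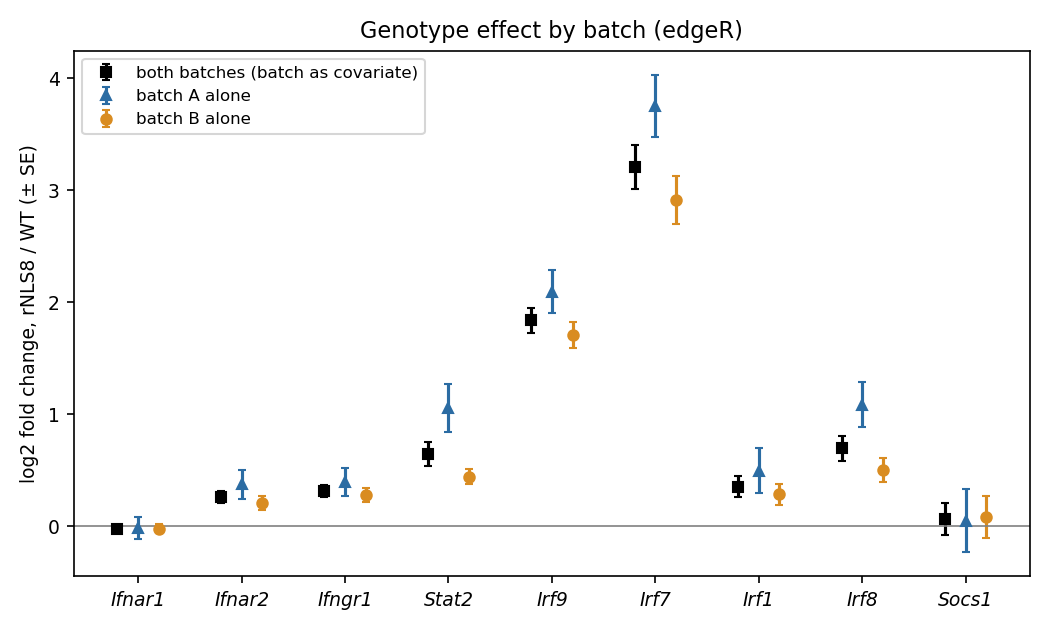
Log2 fold change of rNLS8 over WT mice (y axis, ± standard error) from edgeR for each gene over both batches, in batch A alone and in batch B alone. The order of the genes is alike in the batches, and the factors lie higher in batch A.

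Both batches were then analyzed alone. In batch B, with 7 mice per group, the same 7 genes were higher, where 19.3% of all genes were higher. In batch A, with 4 WT and 3 rNLS8 mice, 4 of the 9 were higher, namely Stat2, Irf7, Irf8 and Irf9, where 6.99% of all genes were. Irf7 rose by a log2 fold change of 3.76 in batch A and 2.91 in batch B, and Irf9 by 2.10 and 1.71. Stat2 rose by 1.06 in batch A and 0.44 in batch B, and Irf8 by 1.08 and 0.50. Ifnar2, Ifngr1 and Irf1 had larger log2 fold changes in batch A (0.37, 0.40 and 0.50) than in batch B (0.21, 0.28 and 0.28), but did not pass the test there (adjusted p = 0.0921, 0.0607 and 0.138 in edgeR).

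The difference between the batches was tested by the interaction of genotype and batch. After adjustment over all 18248 genes, none of the 9 genes and no gene at all (0%) passed in edgeR, while DESeq2 called 1 gene, which was not among the 9. At an unadjusted p under 0.05 were 1030 genes (5.64%) and 3 of the 9. These were Stat2, with an effect larger in batch A by 0.58 on the log2 scale (unadjusted p = 0.00629), Irf8 by 0.55 (unadjusted p = 0.0160) and Irf7 by 0.81 (unadjusted p = 0.0491). The estimates rested in part on T60303 of batch A. Without it they were 0.30 for Stat2, 0.28 for Irf8 and 0.51 for Irf7 (unadjusted p = 0.0922, 0.170 and 0.208), and that of Irf1 went from 0.18 to -0.04.

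Socs1 differed more between batches than between genotypes. WT mice of batch A had 17.5 to 26.6 normalized counts and those of batch B 10.2 to 15.7, without overlap. In rNLS8 mice the values were 18.4 to 27.2 in batch A and 9.56 to 21.5 in batch B. This was noticed in the values and not tested, and how many of all genes separate by batch in this way was not counted.

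**Figure D4:**
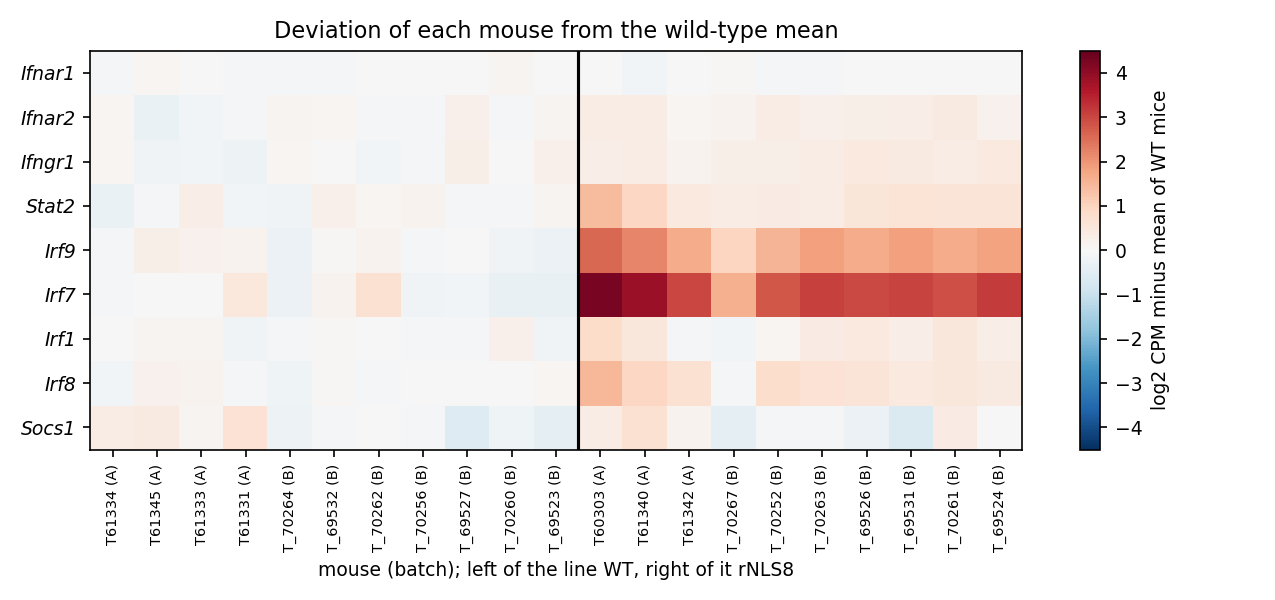
Log2 CPM of each gene (rows) in each mouse (columns, batch in brackets) minus the mean of the WT mice, from blue (lower) to red (higher). Irf7 and Irf9 are red in all 10 rNLS8 mice, deepest in T60303 and palest in T_70267.

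The extremes of the rNLS8 group were shared by the transcription factors, while the order between them was not. T60303 of batch A was the highest rNLS8 mouse and T_70267 of batch B the lowest for each of Stat2, Irf1, Irf7, Irf8 and Irf9. T61340, whose Tardbp counts were within the WT range, had the next highest value after T60303 for Irf7 (733 normalized counts), Irf8 (217), Irf9 (678) and Stat2 (737). The third batch A mouse, T61342, was at 403 for Irf7 and 473 for Irf9, within the range of batch B. T_70252 was the 3rd highest rNLS8 mouse for Irf8 but the 9th for Irf7 and Irf9. The receptor chains and Socs1 did not share these extremes, and T_70267 even had the highest Ifnar1 value of the rNLS8 mice (966). T60303 and T_70267 were also the highest and the lowest for the microglia and the monocyte and border macrophage marker sums given above. This was not particular to these cell types. T_70267 was also the lowest rNLS8 mouse for the summed endothelial markers (182 CPM, against 221 to 270 in WT mice). It was the highest for the oligodendrocyte markers (7454 CPM, against 4370 to 7348 in WT mice). The part of any cell type in the values of the factors was not tested.

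**Figure D5:**
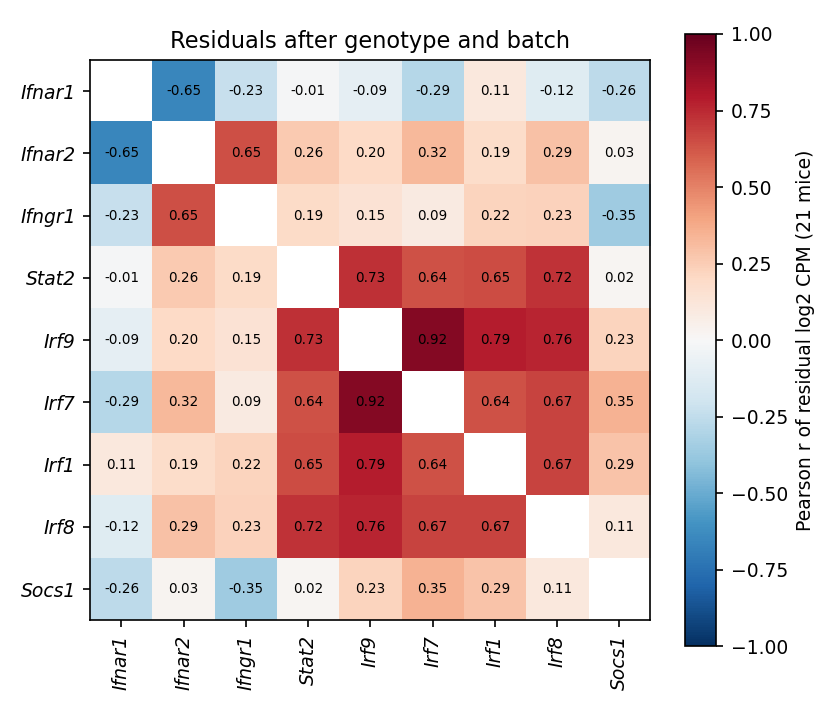
Pearson r between genes over 21 mice, computed on log2 CPM after removal of the effects of genotype and batch (colour scale from -1 to 1). The block of Stat2, Irf9, Irf7, Irf1 and Irf8 has values between 0.64 and 0.92, and Ifnar1 and Ifnar2 are at -0.65.

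The variation between mice was also compared after removal of genotype and batch. All correlations here are descriptions over 21 mice, which share libraries and depth, and none was tested. Among Stat2, Irf1, Irf7, Irf8 and Irf9, Pearson r ranged from 0.64 (Irf1 with Irf7) to 0.92 (Irf7 with Irf9). Ifnar2 went with Ifngr1 (r = 0.65) and against Ifnar1 (r = -0.65), and the receptor chains had r of at most 0.32 with any of the 5 factors. Socs1 reached at most 0.35, with Irf7.

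Among 14583 other genes averaging 50 or more counts, the genes whose residual pattern was most like that of Irf7 were Oasl2 (r = 0.93), Irf9 (0.92), Isg15 (0.91), Gbp3 (0.91) and Bst2 (0.90). Oasl2 is an oligoadenylate synthetase-like protein, Isg15 a ubiquitin-like modifier, Gbp3 a guanylate-binding protein and Bst2 the restriction factor tetherin. These are interferon-stimulated genes, and their log2 fold changes were 3.14, 1.84, 3.17, 2.12 and 2.58 in the same order. For Irf9 the list was Gbp3 (0.94), Ifit3b (0.92), Irf7 (0.92), Smim4 (0.90) and Isg15 (0.90), of which Smim4 did not pass the test (log2 fold change 0.03, adjusted p = 0.766). For Irf8 it was another set, with C1qb (0.88), Lag3 (0.88), Unc93b1 (0.87), Cyba (0.85) and C1qa (0.85). C1qa and C1qb encode complement chains that microglia make, Cyba a subunit of the phagocyte NADPH oxidase, Unc93b1 a trafficking chaperone of endosomal Toll-like receptors and Lag3 an immune receptor. Their log2 fold changes lay between 0.34 (Unc93b1) and 0.70 (Lag3).

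The rest of the pathway was read from a list of 58 other genes, of which 35 were tested. There were 10 higher, 6 lower and 19 that did not pass, so that 28.6% were higher beside 23% of all genes, and the median log2 fold change was 0.05. Scaling by library size alone gave 15 higher and 3 lower. Batch A alone, with fewer mice, gave 6 higher and 2 lower. There Jak1, Stat3, Socs3, Socs4, Socs6, Socs7, Pias3 and Ptpn11 did not pass, with the direction of the full data and log2 fold changes between -0.29 (Socs3) and 0.40 (Socs6). In batch B alone Socs3 (log2 fold change -0.27, adjusted p = 0.138) and Pias3 (0.13, adjusted p = 0.0600) did not pass. Stat4, which did not pass in the full data (-0.41, adjusted p = 0.0574), was lower in batch B alone (-0.74, adjusted p = 0.00192). In batch A alone its log2 fold change was 0.25 (adjusted p = 0.643).

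At the top of the pathway, ligand transcripts were barely counted. The 18 type I interferon genes had 7 counts in all 21 mice together, and 14 of them had none. Ifnb1, Ifna14 and Ifna16 had 1 count each, all in rNLS8 mice, and Ifnz had 3 counts in WT and 1 in rNLS8 mice. Ifng had 2 counts, both in rNLS8 mice, and Ifnl3 had 1. At this depth 3 counts, the limit that a count of 0 allows, are 0.131 to 0.151 CPM per mouse, so that a difference in ligand RNA was not detectable. Of 8 markers of T and NK cells, which make interferon gamma, 7 averaged at most 1.72 normalized counts in either group. Their counts in all WT and all rNLS8 mice were 10 and 6 for Cd3e, 3 and 6 for Cd3d, and 5 and 12 for Cd3g. They were 5 and 18 for Cd8a, 11 and 11 for Nkg7, 9 and 10 for Gzma, and 1 and 11 for Gzmb. Cd4 was far above these, with 174 ± 99.3 normalized counts (SD) in WT and 81.4 ± 43.3 in rNLS8 mice. Cd4 fell by 1.24 on the log2 scale, and which cells held its RNA was not tested.

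Among the kinases, Jak1, which pairs with IFNAR2 and IFNGR1, fell by 0.14 on the log2 scale (adjusted p = 0.0126), a call that was lost with scaling by library size alone (log2 fold change -0.07, adjusted p = 0.217). Jak2, Jak3 and Tyk2 did not pass, with log2 fold changes of -0.06, 0.05 and -0.04. Of the other 6 STAT genes 3 were higher, among them Stat6, which responds to interleukin 4, by 0.46 (adjusted p = 2.21e-05) and Stat3, which responds to interleukin 6 family cytokines, by 0.22 (adjusted p = 9.86e-06). Of the other IRF genes 4 were tested and none passed. Irf5, a myeloid factor downstream of Toll-like receptors, had a log2 fold change of 0.22 (adjusted p = 0.0883), which passed when scaled by library size alone (adjusted p = 0.0235), and Irf3, the factor that acts upstream of Irf7, had 0.10 (adjusted p = 0.345). Of the partners of IRF2, Irf2bpl fell by 0.39 (adjusted p = 4.08e-06).

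Among the inhibitors, Usp18, the ISG15 protease that blocks IFNAR2 and is itself an interferon-stimulated gene, rose from 22.5 ± 8.37 to 178 ± 77.4 normalized counts (SD). On the log2 scale, rNLS8 minus WT was 2.97 ± 0.22 (SE; adjusted p = 1.89e-10). Ptpn6, the phosphatase SHP-1 of blood-derived and microglial cells, rose by 0.65, Pias2 by 0.51 and Pias3 by 0.17. Ptpn11, which encodes SHP-2, fell by 0.15 (adjusted p = 0.00273), a call that was lost with scaling by library size alone (adjusted p = 0.0996). Of the 7 other SOCS family genes, Socs4 and Socs6 rose by 0.39 and 0.41, and Socs5, Socs7 and Socs3 fell by 0.53, 0.22 and 0.28. The call of Socs3, the STAT3 feedback inhibitor, was also lost with scaling by library size alone (log2 fold change -0.20, adjusted p = 0.147).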

How the data were processed

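Bulk RNAseq was done on neocortex of 21 mice with 100 bp paired-end reads. The tissue is given as the labels name it, and the study's methods name cortex, whereas a figure legend of the study names hippocampus for rNLS8 mice. Reads were aligned to GRCm38 (mm10), and the values that the authors deposited are unnormalized counts, 1 row per gene symbol. The submitters' processing notes name HISAT, HISAT2, Bowtie, Bowtie2 and RSEM, and the counting program and its use of strand are not given in the sources used here. Genotype and batch were taken from the sample labels, and each library is 1 mouse.

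The genotype comparison used edgeR 4.0.16 under R 4.3.3 (filterByExpr with a minimum count of 10 and a minimum total of 15, TMM, quasi-likelihood test with batch as covariate) and Benjamini-Hochberg adjustment over all genes tested, at 0.05. Standard errors follow from the F statistic. Normalized counts are counts over the effective library size times its mean. Log2 CPM used a prior count of 2. Single values were tested by exact permutation of genotype within batch. Alternatives were DESeq2 1.42.0 with and without batch, limma 3.58.1 (voom with sample quality weights), other scalings and filters, each batch alone, no further-copy rows (4.11% of counts) and leaving out each mouse. Leaving out 3 mice together, and SDs without T60303 or T_70267, were added after the data were seen. Between mice of 1 group and batch, counts differed beyond sampling noise in all 51 pairs (chi-square per degree of freedom of at least 3.84), and no pair was merged. Reads carry no molecular identifiers, and limits of 3 counts cover counting error only.

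The members and gene lists were chosen with earlier results of these data known. All 9 members were named, then up to 4 genes per role of the pathway list past the threshold, every ligand with a count, and the 5 genes most like each of the 3 members with the largest change. Named beyond this rule were Socs7 and Ptpn11, which passed, some pathway genes that did not pass, such as Jak2 and Irf5, and marker genes. In 2 cases a gene that this rule names is not reported here. Positions and promoters are from RefSeq (GRCm38.p6), exon lengths and overlaps from GENCODE M21. The procedures were tested on simulated data.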

Additional observations from a re-analysis of the deposited data

How the results depend on the processing

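The number of the 9 genes higher in rNLS8 mice was 7 in 12 of 13 alternative settings (other scalings, filters, tools, no batch term, batch B alone, no further-copy rows, 3 mice left out) and in each of the 21 fits without 1 mouse. The exception was batch A alone, with 4 of the 9 genes differing, all 4 higher, of 2195 genes that differed in all. There Ifnar2 (log2 fold change 0.37), Ifngr1 (0.40) and Irf1 (0.50) no longer passed, with larger estimates from 4 against 3 mice. Batch A also had 6 higher and 2 lower genes on the pathway list, and scaling by library size alone had 3 lower. Over all genes, the median log2 fold change was 0.08 with scaling by library size alone. The direction of Ifnar1 turned with scaling by library size alone (log2 fold change 0.054), and that of Socs1 without T_70261, with a range over single mice left out from -0.0046 to 0.11, and neither passed in any setting. Among the fits without 1 mouse, the log2 fold changes of Stat2, Irf1, Irf7, Irf8 and Irf9 were lowest without T60303, at 0.53, 0.28, 3.08, 0.59 and 1.75. Irf7, Irf8, Irf9 and Stat2 passed in every alternative, with a largest adjusted p of 0.00984, for Stat2 in batch A alone. No paired analysis was possible because the labels give no number that links mice of the groups. Depth limits Socs1 and the ligand genes.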
